A study of Mus musculus with 2 samples.

Results

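The CYP4 fatty acid hydroxylases described here are 10 mouse genes: the 6 Cyp4a genes Cyp4a10, Cyp4a14, Cyp4a31, Cyp4a32, Cyp4a12a and Cyp4a12b, the 3 Cyp4f genes Cyp4f13, Cyp4f14 and Cyp4f15, and Cyp4v3. They were chosen by name as the Cyp4a, Cyp4f and Cyp4v hydroxylases and measured where the platform annotation gives a probe set 1 gene symbol. This left 8 of the 10 with a value of their own, out of 22180 genes on the array. Cyp4a10 and Cyp4a32 appear only in probe sets that the annotation assigns to more than 1 Cyp4a gene, and no level of their own can be given. Of the 10, 4 (Cyp4a10, Cyp4a14, Cyp4a31 and Cyp4a32) are grouped here as genes induced through the nuclear receptor PPAR-alpha, to be set beside the Cyp4a12 pair.

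The study compared the livers of WT and E4bp4-LKO male mice, the second genotype being deficient in E4BP4, a repressor of the basic leucine zipper class encoded by Nfil3. Both groups started a high-fat diet when 2 months old and received it for 12 weeks in a light cycle (12 hours on, 12 hours off) at 25 °C. Each group was 1 array, hybridised with RNA pooled from several animals. Pool sizes, the hour of sampling, the promoter that drives the deletion and the strain background are not stated in the sources used here. All values are log2 intensities, and each difference is the E4bp4-LKO array minus the WT array. With 1 array per genotype, no difference below has a replicate error or a test.

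Enzymes of the CYP4 family hydroxylate fatty acids at or near the end of the chain far from the carboxyl group, the reaction called omega-hydroxylation. Alcohol and aldehyde dehydrogenases then turn the products into dicarboxylic acids, which peroxisomes shorten. In mouse liver, Cyp4a10 and Cyp4a14 are textbook targets of PPAR-alpha and respond to fasting and to fibrate drugs, while the Cyp4a12 genes are known for higher expression in males, under androgen and growth hormone. The Cyp4f enzymes act on leukotrienes and other eicosanoids, and Cyp4v3 is the counterpart of a human gene mutated in an inherited retinal crystal disease.

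The arrays had nearly equal medians over all probe sets, 3.74 for WT and 3.75 for E4bp4-LKO. The processing equalises both arrays by quantiles, so this likeness was set by it. A gene counted as above the floor when its mean over both arrays exceeded 4.20, the median over all genes, which kept 11090 genes and all 8 measured members. Nfil3 itself stood at 5.94 on the WT array and 4.47 on the E4bp4-LKO array. Hepatocyte markers were high on both arrays, with Alb, the albumin gene, at 12.77 on each, and none of the 9 markers differed by 1.5-fold. Of the kidney, another organ rich in CYP4 enzymes, all 4 markers (Umod, Slc34a1, Aqp2 and Kap) were below the floor on both arrays. Markers of other cell types were less even. Of the 5 stellate cell markers all had lower values on the E4bp4-LKO array, 2 of them by 1.5-fold or more, and the log2 of the summed intensity was 9.73 for WT and 9.10 for E4bp4-LKO. The 4 skeletal muscle markers above the floor, out of 5, were all at least 1.5-fold lower (summed level 8.88 and 7.71), and of the 4 squamous epithelium markers 3 were higher and 1 lower by that much (summed level 9.26 and 8.33); the 3 (Krt4, Krt13 and Krtdap) were under the floor in WT and passed it through the E4bp4-LKO array alone. None of the 5 macrophage or 4 endothelial markers passed 1.5-fold, with medians of 0.07 and -0.29. Of the cholangiocyte markers 2 of 4 were above the floor and 0 passed, Cd4 was the 1 of 3 T and B cell markers that did, and the 3 adipocyte markers were below the floor. For comparison, 1.51% of all genes above the floor were higher by 1.5-fold or more and 2.06% lower. The part of these cells in the values of the CYP4 genes was not tested, and in pooled tissue fewer cells of a type cannot be told apart from less RNA per cell.

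The Cyp4a12 genes encode the arachidonic acid and fatty acid hydroxylases that mark male mouse liver and kidney. Cyp4a12b stood at 7.37 on the WT array and at 8.79 on the E4bp4-LKO array, higher by 1.42 on the log2 scale or 2.68-fold. It ranked 14th from the highest of the 11090 genes above the floor, and both of its values lay at least 3.17 above the floor. Cyp4a12a, the neighbouring copy on chromosome 4, read 7.04 for WT and 7.19 for E4bp4-LKO, a difference of 0.15 or 1.11-fold. The difference of Cyp4a12b therefore exceeded that of Cyp4a12a by 1.28 on the log2 scale. Each gene was read by 1 probe set only (17417195 for Cyp4a12b and 17417180 for Cyp4a12a). The pair is nearly identical in sequence, probe sequences were not examined, and signal from either transcript may have reached both probe sets, so the split between the copies is uncertain. For scale, 555 genes above the floor have a pair of probe sets each, and the SD of the E4bp4-LKO minus WT values between the probe sets of a gene, pooled over these genes, was 0.22. That SD measures disagreement between probes and not between mice.

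The Cyp4a genes known for induction by PPAR-alpha showed no comparable difference. Cyp4a14, a strongly fasting-responsive hydroxylase, read 10.68 for WT and 10.75 for E4bp4-LKO, a difference of 0.07 or 1.05-fold, smaller than the SD between probe sets. Cyp4a31, a close paralog of Cyp4a10, read 7.89 and 7.61, lower on the E4bp4-LKO array by 1.21-fold (-0.28). These measured members of the group thus pointed in opposite directions, 0.35 apart on the log2 scale. A probe set assigned to both Cyp4a10 and Cyp4a31 (17417223) read 10.37 on the WT array and 10.51 on the E4bp4-LKO array, a difference of 0.15. A further one assigned to both Cyp4a32 and Cyp4a10 (17417255) read 7.35 and 7.30, a difference of -0.05. Over these 4 values, 2 were above 0 and the median was 0.01. On neither array can the signal of these shared probe sets be divided among the genes.

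Set side by side, the Cyp4a12 pair had a mean difference of 0.78 and Cyp4a14 with Cyp4a31 one of -0.10, which leaves 0.89 between the groups. That gap rested on Cyp4a12b: the 0.15 of Cyp4a12a lay close to the 0.07 of Cyp4a14, and the shared Cyp4a10 and Cyp4a31 probe set had the same rounded difference as Cyp4a12a. With the shared probe sets included, an alternative added after the values had been seen, the gap was 0.81.

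**Figure D1:**
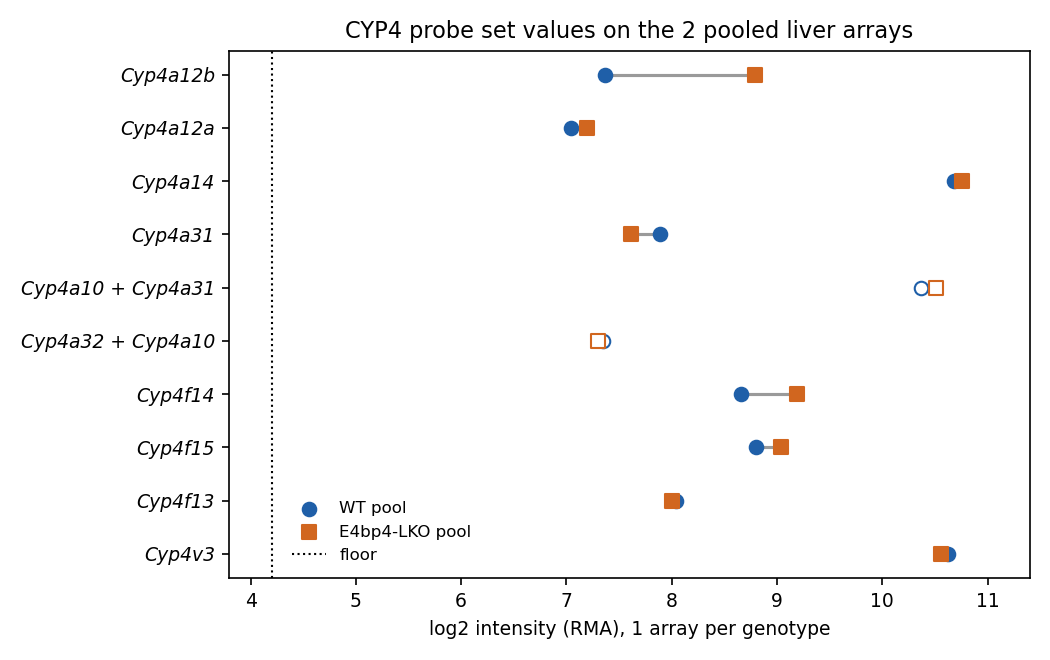
Log2 intensity (RMA) of each CYP4 probe set on the WT array (blue circles) and the E4bp4-LKO array (orange squares), 1 array of pooled liver RNA per genotype, joined by a grey line. Open symbols are probe sets assigned to more than 1 Cyp4a gene, the dotted line is the floor at 4.20, and levels are to be compared within a row and not between rows. Cyp4a12b, from 7.37 to 8.79, has the longest line, and Cyp4f14, from 8.66 to 9.19, the next.

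The Cyp4f members, which hydroxylate leukotrienes and related lipids, differed unevenly. Cyp4f14, a hydroxylase of leukotriene B4 and of vitamin E side chains, read 8.66 for WT and 9.19 for E4bp4-LKO, higher by 0.53 or 1.44-fold. This placed it 225th from the highest among genes above the floor and just short of the 1.5-fold threshold, which is 0.58 on the log2 scale. Cyp4f15 read 8.80 and 9.04, a difference of 0.24 or 1.18-fold, close to the SD between probe sets. Cyp4f13 read 8.04 and 8.01, a difference of -0.04. Of the 3 Cyp4f genes, 2 were therefore above 0, with a median difference of 0.24. Cyp4f14 and Cyp4f13 lie next to each other on chromosome 17, and their differences were 0.57 apart.

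Cyp4v3, an omega-hydroxylase of medium-chain fatty acids, read 10.63 on the WT array and 10.56 on the E4bp4-LKO array, a difference of -0.07 or 1.05-fold. A probe set assigned to both Cyp4v3 and its neighbour Klkb1, the plasma kallikrein gene, read 10.01 and 10.06. Both differences were smaller than the SD between probe sets.

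Counted together, 1 of the 8 measured members, Cyp4a12b, was at least 1.5-fold higher on the E4bp4-LKO array and 0 were lower by as much. Over the whole set of 11090 genes, 1.51% were higher by that much, 2.06% lower and 3.57% either way. At 2-fold Cyp4a12b was still past the threshold, as were 0.388% of the 11090 in that direction. At a threshold of 0.32 on the log2 scale, Cyp4f14 joined it and made 2 members, against 16.3% of all genes in either direction. With 8 genes, a single one past the threshold says little about the family as a whole. The median difference of the members was 0.11, against -0.02 over all genes above the floor, with 5 members above 0 and 3 below. The range from -0.54 to 0.49 held the central 95% of all differences above the floor, and 6 of the 8 members fell inside it, Cyp4a12b and Cyp4f14 being outside. Differences smaller than the SD between probe sets were seen for 4 members: Cyp4a14, Cyp4a12a, Cyp4f13 and Cyp4v3.

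**Figure D2:**
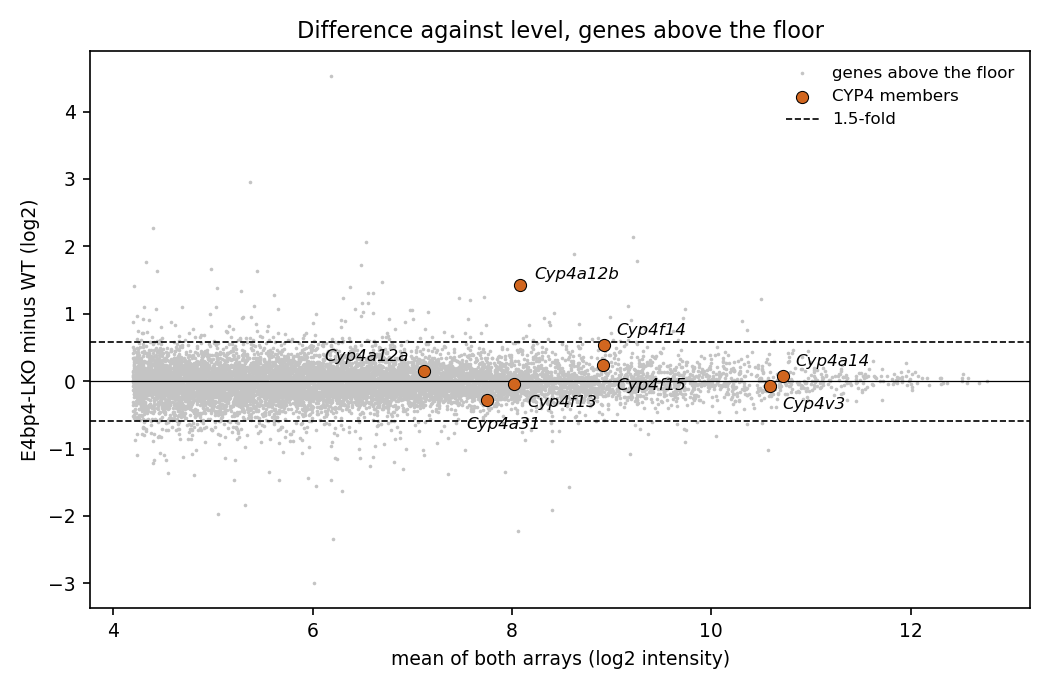
Difference between the arrays (E4bp4-LKO minus WT, log2, vertical axis) against the mean of both arrays (log2 intensity, horizontal axis) for the 11090 genes above the floor (grey) and the 8 measured CYP4 members (orange). The dashed lines mark 1.5-fold; Cyp4a12b at 1.42 is beyond them, Cyp4f14 at 0.53 is just inside, and the other members lie between -0.28 and 0.24.

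The remaining genes of the family were mostly dim in these livers. Of 11 other CYP4 genes listed, 10 had values and 3 were above the floor: Cyp4b1, which encodes a P450 best known from lung (7.15 and 7.13, a difference of -0.02), Cyp4f17 (6.40 and 6.58, 0.19) and Cyp4f16 (4.80 and 4.58, -0.22). None of the 3 differed by 1.5-fold. Cyp4x1 and Cyp4a29 lay below the floor, at 4.01 and 2.04 on the E4bp4-LKO array. Cyp4f37 read 3.19 and 3.82, a difference of 0.63 between values that are both below the floor.

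No gene near Cyp4a12b differed by as much. The Cyp4a members lie in 1 cluster on chromosome 4, in the order Cyp4a12a, Cyp4a12b, Cyp4a14, Cyp4a10, Cyp4a31 and Cyp4a32, per the RefSeq gene table of GRCm38.p6. Of the 5 nearest genes with values on each side of that cluster, 5 of 10 were above the floor, and they differed by between -0.30 (Efcab14) and 0.32 (Atpaf1). Cyp4a30b, which lies between Cyp4a12b and Cyp4a14, was below the floor at 2.18 and 2.33. Around the Cyp4f members on chromosome 17, the differences of the 3 flanking genes above the floor ran from -0.22 to 0.19. The zinc finger genes Zfp871 and Zfp870, located between Cyp4f15 and Cyp4f14, differed by -0.16 and 0.32. Around Cyp4v3 on chromosome 8, those of the 7 flanking genes above the floor ran from -0.11 to 0.37. None of these flanking genes above the floor passed 1.5-fold.

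**Figure D3:**
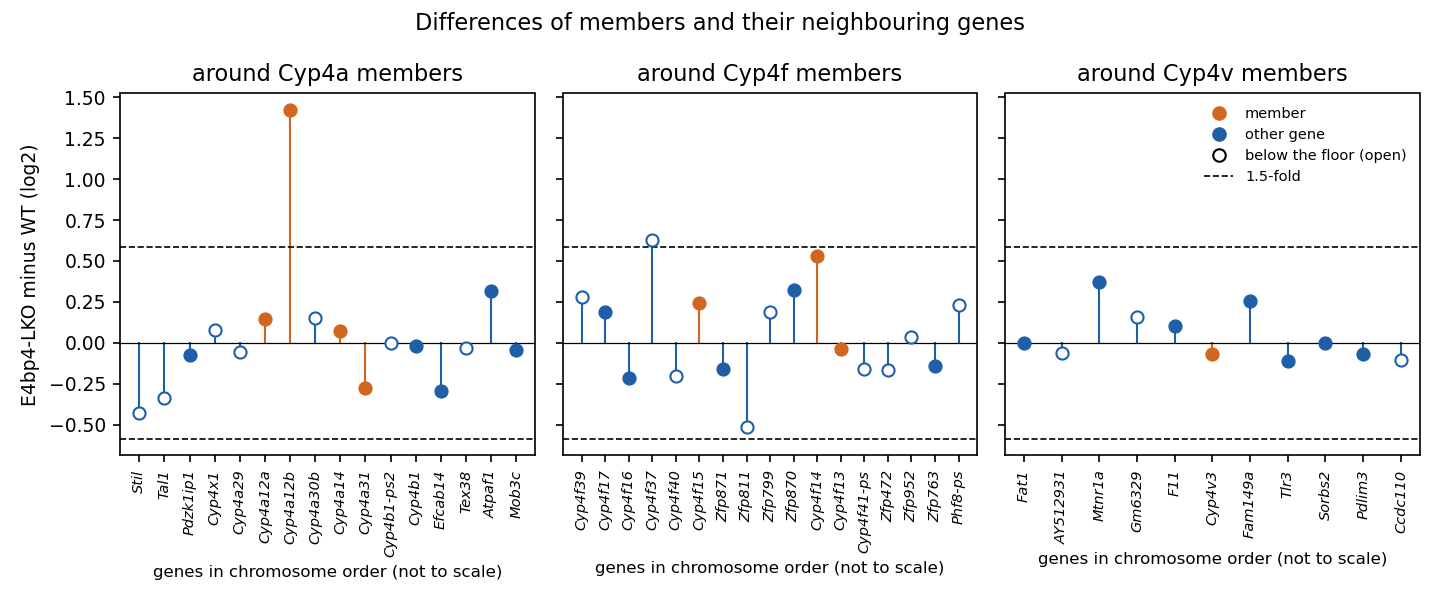
Difference between the arrays (E4bp4-LKO minus WT, log2) for CYP4 members (orange) and their neighbouring genes (blue), in chromosome order and not to scale, for the Cyp4a cluster, the Cyp4f cluster and Cyp4v3. Open circles are genes below the floor and dashed lines mark 1.5-fold; Cyp4a12b at 1.42 is the only filled point beyond them.

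The promoter windows of the Cyp4f genes are shown because these genes are the members with both a RefSeq window and unequal differences: Cyp4f14 (0.53), Cyp4f15 (0.24) and Cyp4f13 (-0.04). RefSeq windows of GRCm38.p6, 250 bases before to 50 bases after an annotated start, were given for 5 members (Cyp4a32, Cyp4f13, Cyp4f14, Cyp4f15 and Cyp4v3), with 4 starts for Cyp4f14. Capitals mark CCAAT, the letters of the CCAAT box, or ATTGG, the same letters read on the other strand, and in Cyp4f13 also 1 match to TTCNNNGAA, the letters of a STAT element. The Cyp4f13 window is chr17:32947312-32947611 on the minus strand, the Cyp4f14 window chr17:32917280-32917579 on the minus strand and the Cyp4f15 window chr17:32685409-32685708 on the plus strand.
Cyp4f13: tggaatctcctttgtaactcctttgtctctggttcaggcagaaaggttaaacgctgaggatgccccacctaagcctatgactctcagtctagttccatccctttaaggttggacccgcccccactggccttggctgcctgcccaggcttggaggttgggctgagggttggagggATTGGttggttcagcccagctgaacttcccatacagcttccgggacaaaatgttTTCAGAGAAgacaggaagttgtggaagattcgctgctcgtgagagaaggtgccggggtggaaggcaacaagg
Cyp4f14: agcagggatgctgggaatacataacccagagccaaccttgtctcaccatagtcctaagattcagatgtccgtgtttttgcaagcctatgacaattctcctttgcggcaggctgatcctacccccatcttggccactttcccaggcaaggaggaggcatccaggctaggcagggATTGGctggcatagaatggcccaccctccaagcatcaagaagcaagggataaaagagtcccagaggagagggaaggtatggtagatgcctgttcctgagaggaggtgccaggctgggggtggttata
Cyp4f15: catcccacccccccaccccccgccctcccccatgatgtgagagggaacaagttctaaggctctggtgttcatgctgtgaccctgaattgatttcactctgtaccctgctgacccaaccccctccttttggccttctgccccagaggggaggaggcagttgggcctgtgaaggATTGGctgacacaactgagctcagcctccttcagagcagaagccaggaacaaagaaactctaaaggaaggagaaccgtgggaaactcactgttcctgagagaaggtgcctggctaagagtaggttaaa

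In these windows ATTGG began 76 bases before the start of Cyp4f13, 77 before this start of Cyp4f14 and 78 before that of Cyp4f15. The start of Cyp4f14 was picked for this likeness; from its other annotated starts ATTGG began 50 and 64 bases before, and the window of the last held CCAAT at 24 bases before. The likeness was not particular to the Cyp4f genes, since ATTGG also began 80 bases before the start of Cyp4a32. CCAAT on either strand was present in 7 of the 8 windows of members and in 37.4% of all 32851 windows of this length. It was searched after the windows had been read. The longest run of letters shared by the Cyp4f13 and Cyp4f15 windows was 14 bases (tgagagaaggtgcc), just after the start, and that shared by any Cyp4f14 window and Cyp4f15 was 13 bases (ctgttcctgagag). TTCNNNGAA was found in 8.3% of all windows and, among the members, in Cyp4f13. The elements TTATGTAA and TTACGTAA, through which E4BP4 and the PAR bZIP factors bind, were found in 0.938% and 0.119% of all windows and in 0 of the 8 windows of members. The same held for the hexamer AGGTCA, the half-site of PPAR elements, present in 16.3% of windows. At their shares, TTATGTAA and TTACGTAA would seldom fall in 8 windows, 4 of them of Cyp4f14, so 0 matches says little. Cyp4a12b had no window, and of the genes grouped as induced through PPAR-alpha only Cyp4a32 had 1. A match describes letters in a window and not a bound site, and its absence here says nothing about sites elsewhere in the genes.

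Genes induced through PPAR-alpha outside the CYP4 family were more often below 0 than above it. Of 34 listed, 30 had values and 27 were above the floor, of which 20 were below 0 and 7 above, with a median of -0.16 against -0.02 over all genes above the floor, 54.5% of which were below 0. Only Vnn1, which encodes a pantetheinase, passed 1.5-fold (9.76 and 8.98, -0.78), against 2.06% of all genes above the floor lower by that much. Ehhadh, the peroxisomal enzyme that shortens dicarboxylic acids, read 10.12 and 10.31 (0.19). Pdk4, a kinase that restrains glucose oxidation, read 7.10 and 6.70 (-0.40). The receptor gene Ppara differed by -0.17, its partner Rxra by 0.02 and the coactivator Ppargc1a by -0.10. None of the 6 measured genes of this regulator list passed 1.5-fold.

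P450 enzymes need electrons and haem. Cyb5a and Cyb5r3, the cytochrome b5 gene and its reductase, differed by -0.03 and 0.04. Alas1, the haem synthesis gene of the list, named after its values had been seen, differed by -0.25 (10.65 and 10.40). None of the 5 measured genes of this list passed 1.5-fold. Por, the reductase that feeds all microsomal P450s, has no value here. Of the genes that act after omega-hydroxylation, 16 of 20 had values, all above the floor, with a median of -0.06. Of these, 11 were below 0 and 5 above, against 54.5% below 0 over all genes above the floor. The alcohol dehydrogenase genes Adh1, Adh4 and Adh5 differed by -0.11, 0.14 and -0.07, Adh1 being averaged over 2 probe sets. Aldh3a2, the fatty aldehyde dehydrogenase, named after its values had been seen, differed by -0.32 (9.25 and 8.92, averaged over 2 probe sets). The peroxisomal fatty acid transporter gene Abcd2, also a female-biased gene, was the 1 member of the list past 1.5-fold (8.57 and 7.70, -0.87). Over all genes above the floor, 2.06% were lower by that much.

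Other eicosanoid enzymes differed little in the median, at -0.02. Of 19 listed, 12 passed the floor, and among these 1 was higher and 1 lower by 1.5-fold or more, against 1.51% and 2.06% of all genes that passed it. Cyp2c54, an epoxygenase, read 8.36 and 10.14 (1.78), and Ephx1, the microsomal epoxide hydrolase gene, 10.82 and 10.20 (-0.62). Ephx2, the soluble hydrolase, differed by -0.04 and Cyp2c29, averaged over 2 probe sets, by 0.14.

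Cyp4a12b was one of a larger number of male-biased liver genes that were higher on the E4bp4-LKO array. Without the CYP4 genes, 17 such genes were listed and 15 passed the floor. Of these, 7 were higher by 1.5-fold or more and 0 lower, against 1.51% and 2.06% of all genes above the floor, with a median of 0.44. The list was drawn up with these values known, so its direction is no independent evidence. The largest differences were those of Hsd3b5 (4.53, from a WT value below the floor), Slco1a1 (2.14), Serpina1e (1.88), Susd4 (1.31), Elovl3 (1.21) and Serpina4-ps1 (1.07). Cyp4a12a, at 0.15, lay nearer to Mup3 (0.11) and Mup20 (0.08), major urinary protein genes named after their values had been seen. Mup3 read 12.47 and 12.58 and Mup20 12.04 and 12.12, near the array maxima of 12.78 for WT and 12.82 for E4bp4-LKO. Mup21, named in the same way, was higher by 0.72 (7.17 and 7.90). The 11 female-biased genes that passed the floor included 4 that were lower by 1.5-fold or more (Cyp2b13, Cyp2a4, Cyp2b9 and Abcd2) and 1, Cyp3a44, that was higher by as much. Both pools came from males, per the labels.

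Genes that carry the growth hormone signal, which sets male-biased expression in liver, had a median of -0.06 over the 9 above the floor. Ghr, the receptor gene, differed by 0.16, the kinase gene Jak2 by -0.07 and Stat5a by -0.34 (5.87 and 5.53). Stat5b, named after its values had been seen, had higher levels and differed by -0.06 (7.25 and 7.19). Bcl6, a repressor that binds STAT5 sites, read 7.42 and 6.22 (-1.20), and Onecut1, a liver factor known as HNF6, 6.48 and 7.52 (1.05); these were the 2 past 1.5-fold, against 3.57% of all genes above the floor. With a floor at the 75th percentile the median of the list was 0.14. Of the factors that share the DNA element of E4BP4, Dbp read 9.72 and 8.65 (-1.08). Tef, averaged over 2 probe sets, read 5.17 and 4.94 (-0.22). The relation of any of these genes to Cyp4a12b or Cyp4f14 was not tested, since 2 arrays give no pattern to compare.

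**Figure D4:**
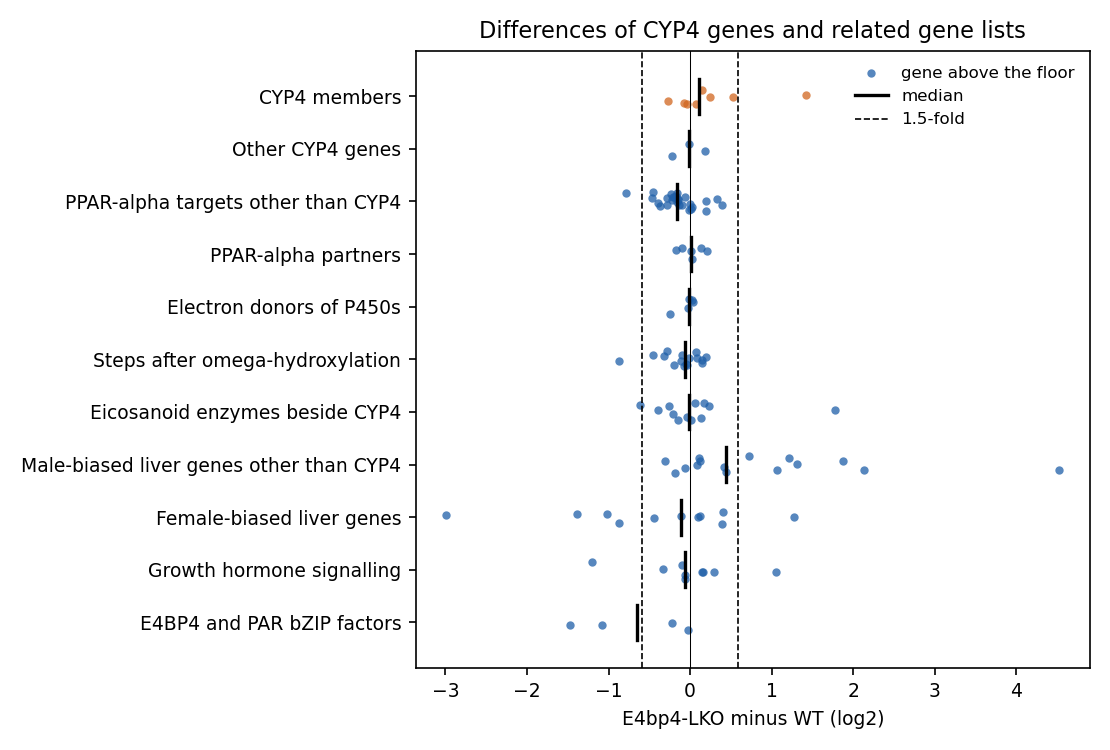
Difference between the arrays (E4bp4-LKO minus WT, log2) for each gene above the floor in the CYP4 members (orange) and in 10 related gene lists (blue), with the median as a black bar and 1.5-fold as dashed lines; vertical scatter within a row has no meaning. The median of the CYP4 members is 0.11, that of the other PPAR-alpha targets -0.16 and that of the other male-biased genes 0.44.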

How the data were processed

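RNA extracted with TRIzol and chloroform was labelled from 400 ng with the manufacturer's whole-transcript kit, per the labels' protocols. Each deposited number is a log2 intensity of a probe set, made with RMA in R 3.4.0 as far as the submitters' processing notes name tools. RMA equalises both arrays by quantiles and compresses differences of dim probe sets. The table held 41345 probe sets, 23521 with 1 symbol, 1814 with several and 16010 with none. Probe sets of 1 symbol were averaged per gene (Python 3.11.15, pandas 2.3.3). Differences, ranks, counts past 1.5-fold and medians were computed; with 1 array per genotype no test was run, and the number of arrays limits the precision. All members are named; of each list, genes past 1.5-fold (at most 6) and its first 3 genes. The members and lists were chosen with earlier results of these data known. Alternatives changed the scaling, the joining of probe sets, the floor and the threshold. The counting of genes past the threshold was checked on simulated arrays with known differences. Scanner files were not used here.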

Additional observations from a re-analysis of the deposited data

How the results depend on the processing

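No difference or count of the members changed direction under the alternatives run. Centring both arrays on the median shifted every member by the same 0.023 on the log2 scale. Removing the trend with intensity moved none by more, and neither change turned any of the 8 signs. Cyp4a12b ranged from 1.42 to 1.45. Taking the highest probe set of a gene or the median over probe sets could not move a member, since each has 1 probe set. The number of members past the threshold stayed at 1 with no floor and with a floor at the 75th percentile. Removing the floor could not change this number, since all 8 measured members were above the floor. The number also stayed at 1 at 2-fold and with the shared probe sets. It was 2 at a looser threshold of 0.32 on the log2 scale, which adds Cyp4f14. That looser threshold also raised the number of list genes past it from 19 to 32, of 102 above the floor. Over all genes above the floor, 3.57% passed 1.5-fold and 16.3% the looser threshold. Among the counts of single lists, 9 values moved with the fold threshold and 4 with the floor, a count that moved at both thresholds being entered for each. A count was taken as moved when it changed by more than 1.5 times or to or from 0. Of the 10 list medians, 4 changed sign under some alternative, all of them below 0 by at most 0.06 in the main setting. The median of the PPAR-alpha regulator list, at 0.01, kept its sign. Growth hormone signalling (-0.06) was at 0.14 with the 75th percentile floor; the other CYP4 genes (-0.02) reached at most 0.09, the eicosanoid enzymes (-0.02) 0.06 and the electron donors (-0.01) 0.02. The female-biased median depended on the floor: it was -0.11 in the main setting, -0.06 with no floor and -0.49 with the 75th percentile floor. Leaving out a replicate was not possible with 1 array per genotype. No paired analysis was possible because each genotype has 1 array and the result comes from no test. Without scanner files, signal over background is unknown, so differences of genes near the floor are uncertain in size.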
